A study of Mus musculus with 4 samples.

Results

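Transcripts of MAP kinase pathway genes were read in activated cells labelled CD4+, with and without a T-cell deletion of Map2k1 and Map2k2. The genes were the 7 MAP kinase kinase genes, Map2k1 to Map2k7, and the ERK kinase genes Mapk3 and Mapk7. These 9 genes were taken by symbol from the 54752 genes counted, and the question was whether any of the other kinases had a higher transcript level where MEK1 and MEK2 were targeted. The knockout cells, named Mek1/2-tKO, came from mice with floxed alleles of both genes (Map2k1 fl/fl and Map2k2 fl/fl) and the Cd4-Cre transgene, and the WT cells from control mice. The floxed lines were on a C57BL/6 background, and the labels give no age. Naïve CD4+ T cells of the spleen were stimulated through CD3 and CD28 under conditions that favour T follicular helper (Tfh) cells, namely IL-6 with antibodies that block TGF-β, IFN-γ, IL-4 and IL-2, and the viable cells were sorted again on day 3. RNA was sequenced in 2 libraries per genotype. The labels do not say whether the 2 libraries of a genotype came from separate mice, so the p-values measure the spread between these libraries, which may be technical. Cd4-Cre acts in T cells that have passed through the CD4-expressing stage of the thymus, and it leaves both genes intact in B cells, NK cells and myeloid cells.

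MAP kinase cascades have 3 tiers. A MAP3K phosphorylates a MAP2K, and the MAP2K phosphorylates its own MAP kinases on a threonine and a tyrosine in the activation loop. MEK1 and MEK2 (Map2k1, Map2k2) act on the classical ERKs, of which ERK1 is encoded by Mapk3, and they carry the signal from RAS after the T-cell receptor is engaged. MEK5 (Map2k5) acts on ERK5 (Mapk7). MKK3 and MKK6 (Map2k3, Map2k6) act on the p38 kinases, MKK7 (Map2k7) acts on the JNK kinases, and MKK4 (Map2k4) acts on JNK and can also act on p38.

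The activation segment runs from the codons of the conserved DFG motif to those of the Pro-Glu pair that ends it. It shows how alike the targeted pair is and what ERK1 and ERK5 share. It was read from the GENCODE M21 coding transcripts (GRCm38), 5′ to 3′ on the coding strand. For the targeted pair, capitals mark the bases at which Map2k1 and Map2k2 differ. The segment of Map2k1 lies in coding exons 6 and 7 at chr9:64191649-64193773 on the minus strand, and that of Map2k2 in exons 6 and 7 at chr10:81119310-81119495 on the plus strand, with an intron inside both spans.
Map2k1: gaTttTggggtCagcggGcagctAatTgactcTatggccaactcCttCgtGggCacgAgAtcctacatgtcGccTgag
Map2k2: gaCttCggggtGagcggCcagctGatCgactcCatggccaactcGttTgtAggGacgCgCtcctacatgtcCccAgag
The 2 segments differ at 15 of 78 bases, and none of these differences changes an encoded residue. Over the whole coding sequence the 2 genes encode 81.9% identical residues across 392 aligned positions, and the longest run of bases they share is 56, which is shorter than the read length of 150. A full-length read from inside the coding exons is therefore not identical on both genes, and only uniquely mapped reads were counted. For the ERKs, capitals mark the Thr-Glu-Tyr codons, whose threonine and tyrosine are the residues that a MEK phosphorylates. The Mapk3 segment lies in exon 4 at chr7:126763404-126763496 on the plus strand, and the Mapk7 segment in exon 4 at chr11:61491392-61491487 on the minus strand.
Mapk3: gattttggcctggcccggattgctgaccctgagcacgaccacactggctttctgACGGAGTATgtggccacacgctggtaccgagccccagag
Mapk7: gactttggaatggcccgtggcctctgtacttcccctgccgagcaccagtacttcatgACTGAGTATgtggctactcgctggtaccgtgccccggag
Both ERKs carry the same dual-phosphorylation motif, and 51.2% of their 379 aligned residues are identical. After Map2k1 and Map2k2, the closest pair among the 9 genes is Map2k3 and Map2k6, with 78.4% identity and a longest shared coding run of 23 bases.

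The libraries held 16330802 to 18931090 counts, and 14330 genes had enough counts to be tested. The cell label was compared with marker genes before the kinases were read. All 9 T-cell markers were detected in every library, but Cd4 itself stood at 297 and 289 CPM (the count scaled to the TMM-adjusted library size) in WT and at 18.8 and 25.1 CPM in Mek1/2-tKO, so the cells labelled CD4+ had little Cd4 transcript in the knockout libraries. Trac (50.8% of WT), Cd3e (48.0%) and Cd28 (25.1%) were also called lower, and 4 of the 9 markers were not called. Thy1 alone was called higher, at 561 and 574 CPM in WT and 1021 and 998 CPM in Mek1/2-tKO. The summed level of the T-cell markers was 2177 to 2198 CPM in WT and 2094 to 2263 CPM in Mek1/2-tKO. Thy1 is the largest term of this sum, so the sum does not show that the other markers kept their level. Markers of other cell types were higher in the knockout libraries. All 12 B-lineage markers were called higher, and their sum was 1267 to 1288 CPM in WT and 6928 to 6977 CPM in Mek1/2-tKO. All 10 γδ T-cell and NK-cell markers were called higher as well, with sums of 83.5 to 84.4 CPM in WT and 705 to 765 CPM in Mek1/2-tKO. Of 5 myeloid markers, 3 were tested and all 3 were called higher. The sum of the 5 was 1.23 to 1.56 CPM in WT and 13.2 to 19.96 CPM in Mek1/2-tKO. Adgre1 was at 0 in both WT libraries, so it entered the test through the knockout libraries and could only be called higher. Lyz2 had 8 and 12 counts in WT and 158 and 117 in Mek1/2-tKO, and entered mostly through the knockout libraries too. These marker levels moved with the genotype, and their part in the kinase values was not tested. In bulk RNA, fewer cells of a type and less RNA per cell cannot be told apart.

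No member was higher and 2 of the 9 members, Map2k1 and Map2k6, were lower in Mek1/2-tKO by 1.5-fold or more with an adjusted p under 0.05. With the same rule, 35.8% of all tested genes were called in either direction, 19.3% higher and 16.4% lower, so that 2 lower genes among 9 is near the background share. All 9 members were tested. Their median log2 fold change was -0.23, against 0.015 for all tested genes, and 2 of 9 lay above 0, or 1 of 9 when libraries were scaled by their size alone. The CPM of the genotypes did not overlap for 8 of the 9 members, Mapk3 being the exception, but this held for 78.3% of all tested genes too.

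**Figure D1:**
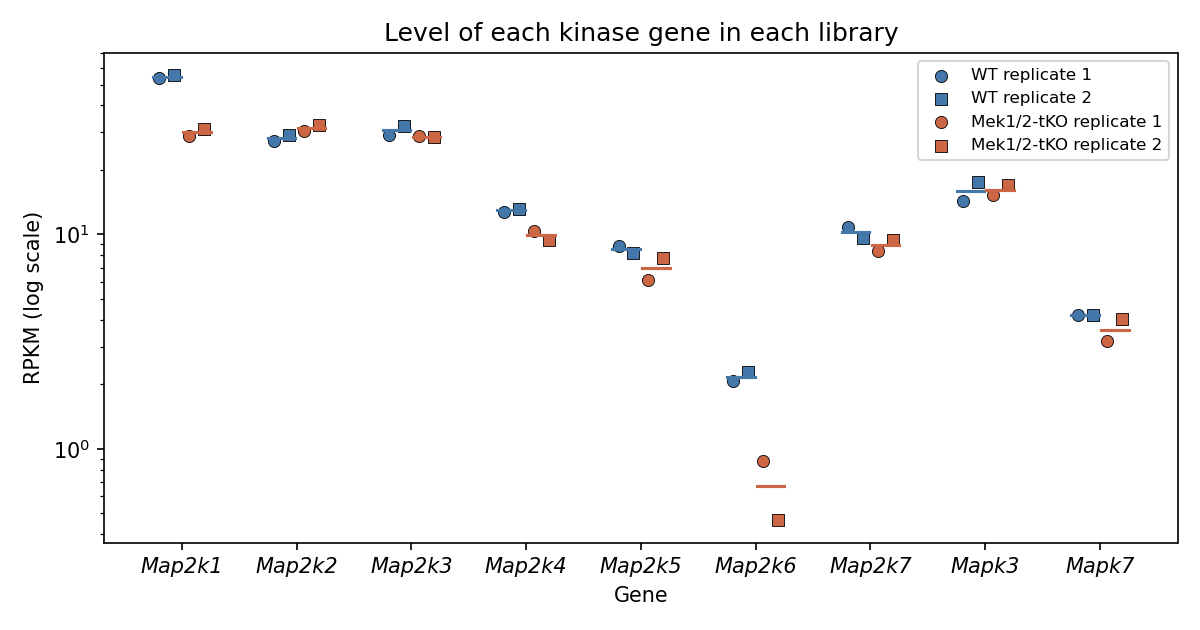
Level of each kinase gene in each library, as RPKM, which is CPM per kilobase of exon (log scale). Blue points are the 2 WT and orange points the 2 Mek1/2-tKO libraries, and short lines are the means (n = 2 each). Map2k1 falls from 53.6 and 55.2 in WT to 28.9 and 31.0 in Mek1/2-tKO, and Map2k6, the lowest member, from 2.07 and 2.27 to 0.881 and 0.464, whereas the points of Mapk3 overlap.

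Map2k1, which encodes MEK1 (ENSMUSG00000004936.8, GRCm38 chr9:64185770-64253631, minus strand), was the more abundant of the targeted genes in WT by count. It had 3540 and 3612 counts in WT and 1517 and 1973 in Mek1/2-tKO, or 182 and 187 CPM against 98.0 and 105 CPM. Both knockout libraries lay below both WT libraries. The level in Mek1/2-tKO was 55.0% of that in WT, with a log2 fold change of -0.86 (95% interval -1.04 to -0.68, edgeR's quasi-likelihood test, Benjamini-Hochberg adjusted p = 1.29e-06).

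Map2k2, which encodes MEK2 (ENSMUSG00000035027.18, chr10:81105915-81133975, plus strand), did not fall. It had 3011 and 3175 counts in WT and 2660 and 3426 in Mek1/2-tKO, or 155 and 165 CPM against 172 and 182 CPM. Both knockout libraries lay above both WT libraries, by less than the fold threshold. The log2 fold change was 0.15 (95% interval -0.02 to 0.32, edgeR adjusted p = 0.126), so that the interval reached from 0.986-fold to 1.25-fold. A count over all exons of a gene does not separate a transcript that lacks floxed exons from an intact one, the sources used here do not name those exons, and neither value measures the protein.

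The balance of the pair was compared within each library, where scaling between libraries has no effect. Per kilobase of exon, the ratio of Map2k1 to Map2k2 was 1.96 and 1.90 in WT and 0.952 and 0.962 in Mek1/2-tKO. The 2 libraries of a genotype lay close together (SD 0.0449 in WT and 0.00660 in Mek1/2-tKO, n = 2 each) and the genotypes did not overlap. The ratio in Mek1/2-tKO was 0.496 times that in WT, a log2 difference of -1.01. A two-sided exact permutation test of 2 libraries against 2 gave p = 0.333, the smallest value this design allows. The summed level of Map2k1 and Map2k2 was 80.9 and 84.3 RPKM in WT and 59.2 and 63.2 RPKM in Mek1/2-tKO, or 0.741 times as high, without overlap between the genotypes (exact permutation p = 0.333).

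**Figure D2:**
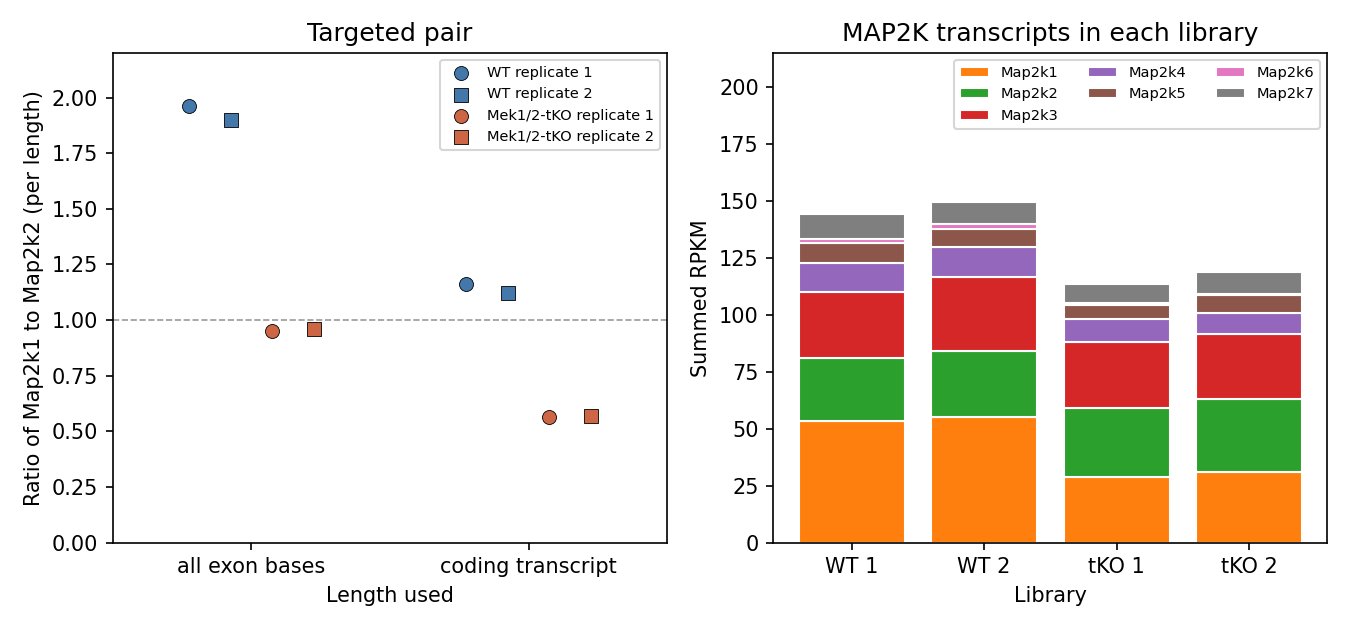
Left, ratio of Map2k1 to Map2k2 in each library, per length, with the length taken as all exon bases or as the longest coding transcript. Right, RPKM of the 7 MAP2K genes stacked for each library. The ratio in the knockout libraries is about 0.496 times that in WT, and the choice of length cannot change this fold. The stack falls from 144 and 150 RPKM in WT to 114 and 119 RPKM in Mek1/2-tKO, mostly through Map2k1.

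Mapk3, which encodes ERK1 (ENSMUSG00000063065.13, chr7:126759601-126765819, plus strand), a direct substrate of MEK1 and MEK2, had the smallest difference of the 9 genes. It had 629 and 768 counts in WT and 534 and 722 in Mek1/2-tKO, or 32.3 and 39.8 CPM against 34.5 and 38.4 CPM. The Mek1/2-tKO values lay between the 2 WT values. The log2 fold change was 0.018 (95% interval -0.26 to 0.30, edgeR adjusted p = 0.916), and its sign changed with the scaling (log2 fold change -0.06 with library size alone). The interval leaves room for a level between 0.835 and 1.23 times that of WT.

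The MEK5 and ERK5 genes stood lower in the Mek1/2-tKO libraries without passing the test in the main fit. Map2k5, the MEK5 gene (ENSMUSG00000058444.8, chr9:63163768-63377902, minus strand), had 28.7 and 26.5 CPM in WT and 19.96 and 25.03 CPM in Mek1/2-tKO (log2 fold change -0.29, 95% interval -0.60 to 0.02, edgeR adjusted p = 0.103). Mapk7, the ERK5 gene (ENSMUSG00000001034.17, chr11:61488812-61494406, minus strand), had 18.5 and 18.6 CPM in WT and 14.02 and 17.6 CPM in Mek1/2-tKO (log2 fold change -0.23, 95% interval -0.57 to 0.12, edgeR adjusted p = 0.254). In both genes the second knockout library stood just below the lower WT library, and the first knockout library lay farther down. Mapk7 shares 2.03% of its exon bases with Mfap4 on the opposite strand.

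Of the 2 genes for the p38 activators, the scarce one was called lower and the abundant one was not called. Map2k6, the MKK6 gene (ENSMUSG00000020623.11, chr11:110399122-110525522, plus strand), had 139 and 151 counts in WT and 47 and 30 in Mek1/2-tKO, or 7.13 and 7.83 CPM against 3.04 and 1.60 CPM. Both knockout libraries lay below both WT libraries, and they also differed from each other more than the WT libraries did. The level was 3.27-fold higher in WT (log2 fold change -1.71, 95% interval -2.40 to -1.02, edgeR adjusted p = 4.82e-04). This was the widest interval of the 9 genes, and leaving out 1 library at a time gave log2 fold changes from -2.22 to -1.31.

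Map2k3, the MKK3 gene (ENSMUSG00000018932.9, chr11:60932033-60952811, plus strand), had 1872 and 2056 counts in WT and 1470 and 1765 in Mek1/2-tKO. In CPM these were 96.1 and 107 in WT and 94.95 and 93.99 in Mek1/2-tKO, so that both knockout libraries lay below both WT libraries, and the lower WT library lay nearer to them than to the other WT library. The log2 fold change was -0.10 (95% interval -0.30 to 0.09, edgeR adjusted p = 0.362). Per kilobase, Map2k3 stood at 29.0 and 32.2 RPKM in WT and 28.7 and 28.4 RPKM in Mek1/2-tKO, more than 10 times above Map2k6 in every library.

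Of the JNK activators, Map2k4, the MKK4 gene (ENSMUSG00000033352.11, chr11:65688243-65788297, minus strand), had 1158 and 1184 counts in WT and 746 and 829 in Mek1/2-tKO, or 59.4 and 61.4 CPM against 48.2 and 44.1 CPM. Both knockout libraries lay below both WT libraries by more than the replicates differed. Its log2 fold change of -0.39 (95% interval -0.61 to -0.17, edgeR adjusted p = 0.00567) passed the p threshold, and the level of 76.4% of WT did not reach the fold threshold. Map2k7, the MKK7 gene (ENSMUSG00000002948.19, chr8:4238740-4247897, plus strand), had 41.4 and 36.9 CPM in WT and 32.0 and 36.1 CPM in Mek1/2-tKO (log2 fold change -0.20, 95% interval -0.46 to 0.06, edgeR adjusted p = 0.172). Map2k7 shares 35.2% of its exon bases with Gm49320 on the same strand, where reads could be split between the genes or dropped, so its level is uncertain.

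**Figure D3:**
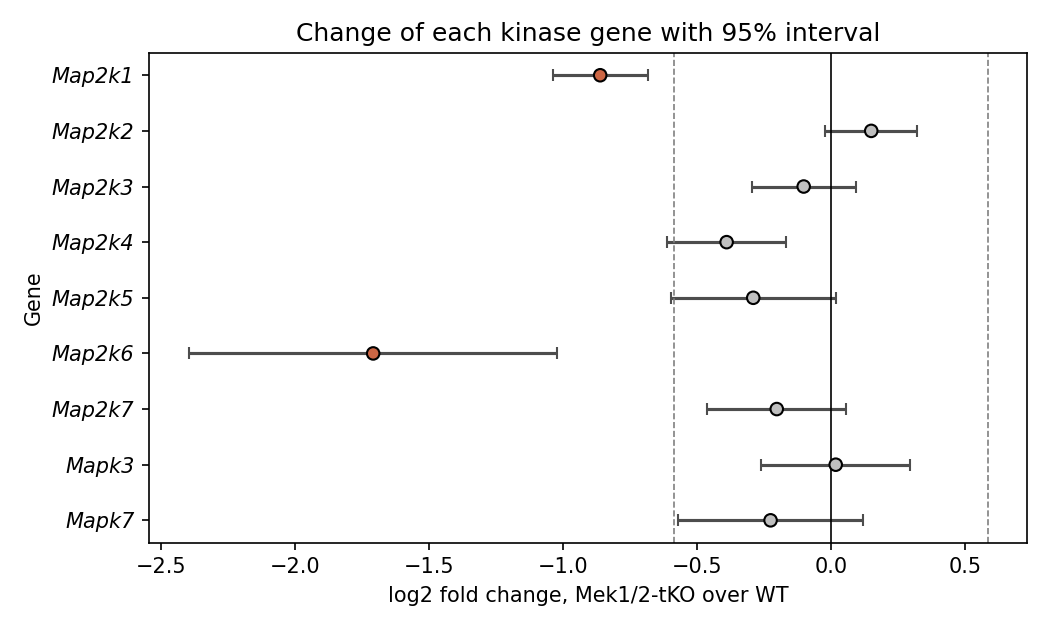
Log2 fold change of each kinase gene, Mek1/2-tKO over WT, with its 95% interval from edgeR's quasi-likelihood fit. Dashed lines mark the 1.5-fold threshold in each direction, and orange points mark the genes called lower. Map2k1 at -0.86 and Map2k6 at -1.71 lie left of the threshold, and no interval reaches the threshold on the right, where the highest bound is that of Map2k2 at 0.32.

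For a rise in another kinase gene, the intervals set an upper limit on the bulk level under the main scaling. They set none on the level within a CD4+ T cell, since markers of other cell types differed between the genotypes. The upper bound of the 95% interval was 1.25-fold for Map2k2, 1.23-fold for Mapk3, 1.09-fold for Mapk7, 1.07-fold for Map2k3, 1.04-fold for Map2k7, 1.01-fold for Map2k5 and 0.890-fold for Map2k4. These bounds are for 1 gene at a time and were not adjusted for the number of genes. The summed level of the MAP2K genes that were not targeted, Map2k3 to Map2k7, was 63.5 and 65.4 RPKM in WT and 54.4 and 55.4 RPKM in Mek1/2-tKO, or 0.852 times as high. The share of the summed level of all 7 MAP2K genes moved nevertheless. Map2k1 held 37.1 and 36.9% in WT and 25.4 and 26.1% in Mek1/2-tKO, Map2k2 held 18.9 and 19.4% against 26.7 and 27.2%, and Map2k3 held 20.1 and 21.5% against 25.2 and 23.9%. These sums and shares take all exon bases as the length, and another length would change them. A larger share of a smaller sum is not a higher level, and for Map2k3 the CPM in Mek1/2-tKO was not above that in WT.

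Per kilobase of exon, the WT order was Map2k1 (54.4 RPKM), Map2k3 (30.6), Map2k2 (28.2), Mapk3 (15.98), Map2k4 (13.0), Map2k7 (10.2), Map2k5 (8.51), Mapk7 (4.22) and Map2k6 (2.17 RPKM). The ranges of Map2k3 and Map2k2 overlapped, and those of all other neighbours did not. In Mek1/2-tKO the order began with Map2k2 (31.3 RPKM), Map2k1 (29.9) and Map2k3 (28.5), whose first pair overlapped, and the 6 genes below kept their order down to Map2k6 at 0.673 RPKM. The order depended on the length used. With the longest coding transcript as the length, WT began with Map2k1 (75.7 RPKM), Map2k2 (66.4) and Map2k3 (46.1), and Mek1/2-tKO with Map2k2 (73.7 RPKM), Map2k3 (43.0) and Map2k1 (41.7). Map2k7 (24.1 RPKM in WT and 20.9 in Mek1/2-tKO) then came before Mapk3 (20.03 and 20.3) and Map2k4 (16.4 and 12.5), and the ranges of Map2k7 and Mapk3 overlapped in Mek1/2-tKO.

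By the Euclidean distance of mean-centred log2 CPM among 9605 genes, 3 genes were most like Map2k1 over the 4 libraries. They were Hmgxb3 (distance 0.0088, log2 fold change -0.86), Mybbp1a (distance 0.010, log2 fold change -0.86) and Setd5 (distance 0.020, log2 fold change -0.85). With 2 libraries per genotype, a small distance mostly means a like fold change, and shared regulation was not tested. Map2k1 stood at percentile 11.4 of the log2 fold changes of all tested genes, so many genes fell as far.

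Above the MAP2K tier, 25 MAP3K genes were listed and 22 tested, of which 2 were called higher and 3 lower, with a median log2 fold change of -0.31. For this list and those below, the background is the 35.8% of all tested genes that were called, 19.3% higher and 16.4% lower. The lists were chosen with earlier results of these data known. Of the kinases that feed MEK1 and MEK2, Braf, Araf and Map3k8 did not pass both thresholds. Braf had 23.8 and 20.9 CPM in WT and 14.8 and 17.6 CPM in Mek1/2-tKO (log2 fold change -0.46, edgeR adjusted p = 0.0214), and passed the p threshold alone. Araf stood at 99.05 and 95.95 CPM in WT and 106 and 100.1 CPM in Mek1/2-tKO (log2 fold change 0.08, edgeR adjusted p = 0.457). Map3k8, the gene of TPL2, which phosphorylates MEK1 and MEK2 downstream of inflammatory receptors, had a log2 fold change of -0.47 (edgeR adjusted p = 0.00244), under the fold threshold. The genes called lower were Map3k20 (13.1 and 13.1 CPM against 2.26 and 2.93, log2 fold change -2.32), whose product ZAK acts on the p38 and JNK arms, Map3k4 (31.3 and 31.2 CPM against 13.8 and 18.9, log2 fold change -0.93) and Map3k12. The genes called higher were Map3k9 and Map3k19, and these 2 and Map3k12, all of low count, are named here after their values were seen. Map3k19 had 0 and 2 counts in WT and 22 and 21 in Mek1/2-tKO. It entered the test through the knockout libraries alone, so it could only be called higher.

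Among scaffolds and adaptors of the cascades, 12 of 15 were tested, 2 were called higher and 3 lower, and the median log2 fold change was -0.11. Ksr1, a scaffold that holds MEK and ERK together, had 53.0 and 61.3 CPM in WT and 20.5 and 23.0 CPM in Mek1/2-tKO. Both knockout libraries lay far below WT (log2 fold change -1.39, SE 0.12, edgeR adjusted p = 6.36e-07). Lamtor3, which encodes the MEK1-binding protein MP1, had 28.7 and 27.0 CPM in WT and 32.9 and 32.6 CPM in Mek1/2-tKO (log2 fold change 0.23, edgeR adjusted p = 0.114). Lamtor4 (log2 fold change 1.15) and Lamtor2 (0.81), further subunits of the same lysosomal complex, were called higher, and Arrb1 (-1.81) and Mapk8ip3 (-0.65) were called lower.

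Of the p38 and JNK kinases, which are substrates of MKK3, MKK4, MKK6 and MKK7, and the atypical MAP kinases, 7 of 10 were tested. In this list 1 gene was called higher and 4 lower, and the median log2 fold change was -0.61. Mapk14, the gene of p38α and the most abundant target of MKK3 and MKK6 by count, had 94.3 and 92.1 CPM in WT and 51.1 and 55.4 CPM in Mek1/2-tKO (log2 fold change -0.81, SE 0.095, edgeR adjusted p = 9.54e-06). Mapk8, the gene of JNK1, had 35.5 and 36.0 CPM in WT and 24.4 and 18.7 CPM in Mek1/2-tKO (log2 fold change -0.74, SE 0.14, edgeR adjusted p = 5.90e-04). Without the second Mek1/2-tKO library it was -0.56 and missed the fold threshold, and the number of genes of this list called in either direction went from 5 to 2; without the second WT library that number was 3. Mapk9, the gene of JNK2, had a log2 fold change of -0.12 (edgeR adjusted p = 0.414). Nlk, an atypical MAP kinase, was called lower (log2 fold change -0.87), as was Mapk6 (-0.61), and Mapk12 was called higher (0.71) at 3.16 to 6.02 CPM. Mapk6 and Mapk12 are named after their values were seen.

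**Figure D4:**
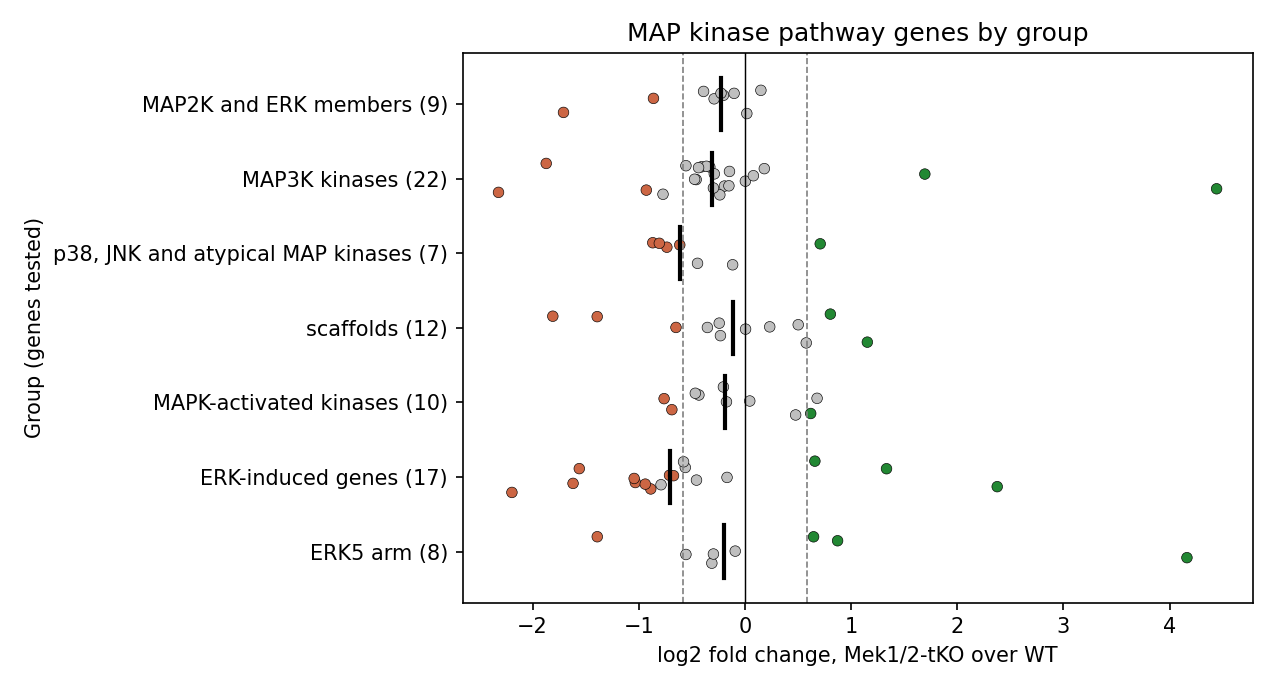
Log2 fold change, Mek1/2-tKO over WT, of each tested gene, grouped by its place in the MAP kinase pathways, with the number tested in brackets. Thick lines are group medians, dashed lines the 1.5-fold threshold, orange points genes called lower and green points genes called higher. The medians are -0.23 for the 9 kinase genes and -0.71 for the 17 genes that ERK signalling induces, and the point farthest to the right in the ERK5 arm is Klf2 at 4.16.

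Below the ERKs, 10 of 11 MAPK-activated kinases were tested, 1 was called higher (Mapkapk5, log2 fold change 0.62) and 2 lower, with a median log2 fold change of -0.19. Those called lower encode ERK-activated ribosomal S6 kinases. Rps6ka1, the gene of RSK1, had 165 and 169.5 CPM in WT and 102 and 105 CPM in Mek1/2-tKO (log2 fold change -0.69, SE 0.081, edgeR adjusted p = 8.84e-06), and Rps6ka3, the gene of RSK2, had a log2 fold change of -0.76. Of 18 genes known to be induced by ERK signalling, 17 were tested, 9 were called lower and 3 higher. Over all tested genes, 16.4% were called lower and 19.3% higher. The median log2 fold change of the list was -0.71. Spry1, a feedback inhibitor of the RAS to ERK route, had 32.2 and 32.1 CPM in WT and 6.52 and 7.46 CPM in Mek1/2-tKO (log2 fold change -2.19, edgeR adjusted p = 6.78e-08). Dusp6, a phosphatase for the classical ERKs, had 34.8 and 44.4 CPM in WT and 19.9 and 18.9 CPM in Mek1/2-tKO (log2 fold change -1.03, edgeR adjusted p = 3.60e-05). Egr1, an immediate-early transcription factor, had 44.8 and 44.5 CPM in WT and 22.9 and 23.6 CPM in Mek1/2-tKO (log2 fold change -0.94, edgeR adjusted p = 1.39e-05). Dusp4 (log2 fold change -1.56) and Spred2 (-1.62) were called lower too. The 3 genes called higher were Ier3 (log2 fold change 1.33) and, named after their values were seen, Spry2 (2.38) and Fosl1 (0.66).

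In the ERK5 arm, all 8 listed genes around MEK5 and ERK5 were tested, 3 were called higher and 1 lower, and the median log2 fold change was -0.19. The MEK5 activators Map3k2 and Map3k3 had log2 fold changes of -0.56 (edgeR adjusted p = 0.00648, under the fold threshold) and -0.30 (edgeR adjusted p = 0.0562). Klf2, a transcription factor gene that ERK5 and MEF2 factors are known to induce, had 4.31 and 6.85 CPM in WT and 95.1 and 105 CPM in Mek1/2-tKO (log2 fold change 4.16, SE 0.17, edgeR adjusted p = 2.22e-10). Klf4, an ERK5 target of low count named after its values were seen, had a log2 fold change of -1.39 and was called lower. Of the MEF2 factors, Mef2c (0.87) and Mef2b (0.65) were called higher, and Mef2d, an ERK5 substrate, had a log2 fold change of -0.09 (edgeR adjusted p = 0.519). Mef2c and Mef2b are expressed in B cells, and the B-lineage markers were higher in the same libraries, as given above. For Klf2, Mef2c and Mef2b, neither the part of other cell types nor that of ERK5 was tested.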

How the data were processed

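RNA-seq was done on 2 WT and 2 Mek1/2-tKO libraries of day 3 cultures, made with a stranded mRNA kit and sequenced as read pairs of 150 nucleotides. The authors trimmed the reads with Trimmomatic 0.36, mapped them to GRCm38 with a mapper written as STRA in the methods, and counted uniquely mapped reads per gene with featureCounts (Subread 1.5.1). The deposited values are raw counts, with no normalization. The sources used here do not give the annotation release, nor whether counting used the strand. Library totals were 16330802 to 18931090 counts, and intervals cover the spread between libraries under the fitted model only.

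In R 4.3.3, the robust quasi-likelihood fit of edgeR 4.0.16, with TMM scaling and the filterByExpr filter, was run over 14330 genes, with Benjamini-Hochberg adjustment over all of them. Calls needed a 1.5-fold change or more and an adjusted p under 0.05. RPKM is the TMM-scaled CPM divided by the exon length in kilobases. The fit was tested on simulated counts with known changes. No library was a copy of another: the chi-square of replicate counts per gene was 4.19 (WT) and 10.9 (Mek1/2-tKO). Sequences and coding identity came from GENCODE M21 transcripts (Python 3.11.15, Biopython 1.88).

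The 9 kinase genes and the lists were chosen with earlier results of these data known. The genes given by name are the 9 members, 17 pathway genes fixed in the design, and the 3 genes nearest to Map2k1. Up to 3 called genes of each pathway list in each direction with the largest fold change (average log2 CPM 3 or more) are also named. Pathway genes named outside this rule are marked. The cell type markers given by name (Cd4, Trac, Cd3e, Cd28, Thy1, Adgre1 and Lyz2) lie outside the rule and are not marked in the text. As alternatives, the scaling was changed (library size alone, upper quartile, size factors of DESeq2), the test (DESeq2 1.42.0, edgeR's likelihood ratio), the filter (none, or 10 counts in every library) and the fold threshold, a replicate block was added, ratios were taken on raw counts, and each library was left out in turn. Neither raw counts nor another length can change the fold of the ratio between genotypes. The coding transcript as length was added after the data were seen. Most genes of the lists enter the counts and medians without values of their own in the text, 1 gene that the rule selects is not reported here, and other genes of the MAP kinase families are not analysed here.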

Additional observations from a re-analysis of the deposited data

How the results depend on the processing

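Over 8 alternatives of test, scaling, filter and block with all libraries, and without any 1 of the 4 libraries, Map2k1 and Map2k6 remained called lower and no member was called higher. Among members, the sign turned in Mapk3 only, with a log2 fold change of -0.065 under library size alone and -0.13 to 0.18 with libraries left out. Map2k5 passed the p threshold, but not the fold threshold, with library size alone (log2 fold change -0.37, edgeR adjusted p = 0.0454). It lay between -0.47 and -0.14 with libraries left out. Map2k4 passed the p threshold in all 8 alternatives and lay between -0.45 and -0.33 with libraries left out. Other signs turned in Araf (-0.0059 under library size alone), Mapk9 (-0.23 to 0.0067 with libraries left out) and Mef2d (-0.28 to 0.066 with libraries left out), none of which was called. Braf and Map3k2 were not called in the main fit. Map3k2 was called lower with library size alone (log2 fold change -0.64, edgeR adjusted p = 0.0022). With libraries left out, Map3k2 lay between -0.61 and -0.50 and Braf between -0.60 and -0.34, both reaching past the fold threshold. Map2k2 lay between 0.07 and 0.21 over the alternatives (adjusted p 0.0388 to 0.538) and between 0.099 and 0.20 with libraries left out (adjusted p 0.020 to 0.615, the lowest without the first Mek1/2-tKO library), never at the fold threshold. With a fold threshold of 2, 1725 genes were higher and 1040 lower, 1 member was lower (Map2k6), and the called genes numbered 0 in the p38, JNK and atypical list, 3 in the scaffolds, 0 in the MAPK-activated kinases, 7 in the ERK-induced genes and 2 in the ERK5 arm. With no fold threshold, 3903 genes were lower, and 12 MAP3K genes, 9 scaffolds and 5 MAPK-activated kinases were called. At least 10 counts in every library left 3 called MAP3K genes in place of 5, since fewer genes were tested. Leaving out 1 library gave 2 to 4 called genes in the p38, JNK and atypical list in place of 5, and the cause was not tested. The summed level of Map2k1 and Map2k2 had a log2 difference of -0.43, which was -0.52 with library size alone and -0.30 with the coding transcript as length. The labels do not say whether the replicate numbers pair the libraries. Deviations of libraries with the same number correlated at -0.026 across genes. A replicate block gave 2652 higher and 2300 lower genes and the same 2 lower members. With 2 libraries per genotype the exact permutation test cannot pass the threshold. The low counts of Map2k6 gave the least precise value among members.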
